A study of Mus musculus with 18 samples.

Results

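A set of 10 genes of bone morphogenetic protein (BMP) signalling were followed in cultured satellite cells of mouse muscle, the cells that rebuild muscle fibres after injury, with and without the homeobox gene Hoxa10. They were chosen by symbol, from the Ensembl identifiers of the count table: the Id genes Id1, Id2 and Id3, the ligand Bmp4, the receptor Bmpr1a, the signal carriers Smad1 and Smad5, the inhibitory Smad6, and the secreted antagonists Nog and Grem1. All 10 were found among the 50689 features of the table. Proliferating cells of C57BL6 mice, taken from tibialis anterior muscle and grown on matrigel in growth medium, were used. In the 9 control libraries Hoxa10 carries Cre target sites (Hoxa10f/f). The 9 scKO libraries carry the same floxed gene together with Pax7-CreERT2/+, a Cre made in cells that express Pax7 and active only in the presence of a tamoxifen, and this group received 4-hydroxytamoxifen at 1 µM for 2 days. No such treatment is given for the controls, so that floxed-gene deletion, Cre and drug differ together and cannot be told apart. Whether each library had its own animal or culture is not in the labels. The p-values therefore measure only the spread between these libraries, which may be technical.

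BMP ligands bind pairs of type I and type II receptors on the cell surface. The activated type I receptor phosphorylates Smad1, Smad5 or Smad9, which join Smad4, enter the nucleus and raise the transcription of the Id genes and of Smad6 and Smad7, inhibitors that close a feedback loop. Id proteins are helix-loop-helix proteins without a DNA-binding region. They capture E proteins such as Tcf3, the partners of Myod1 and Myf5, and in satellite cells BMP signalling and Id proteins are known to favour proliferation over differentiation. Nog and Grem1 encode proteins that bind BMPs outside the cell and keep them from their receptors.

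The libraries fell into depth classes. A total of over 2000000 counts was reached by 5 "deep" libraries, control 1 and 2 (4346150 and 5986128 counts) and scKO 6, 7 and 9 (5295236 to 5842408). The 13 "shallow" libraries, 7 control and 6 scKO, held 420197 to 968559 counts. The first principal component (48.6% of the variance) separated these classes, so groups were compared within each class and with the class as a term. On the second (14.1%), control 7, 8 and 9 and scKO 1 lay at 21.3 to 31.5 and the other 9 shallow libraries at -23.1 to -11.8; these 4 libraries are called the libraries that stood apart, and results that rest on them are given with and without them. Hoxa10 was lower in scKO, at 1.94 to 4.94 against 15.3 to 66.4 CPM (counts scaled to a common library total after TMM, a correction for differences in composition) in shallow and 7.03 to 10.6 against 38.8 to 41.0 in deep libraries. Each of the 7 myogenic markers was detected in every class and group. Their levels differed between the classes, with sums of 5710 to 9684 CPM in shallow and 1944 to 2385 CPM in deep libraries. Single markers went both ways, from Cdh15 (-2.43, deep minus shallow on the log2 scale) to Myf5 (1.88). Markers of differentiated muscle summed to 11538 to 18669 CPM in shallow and 2706 to 3592 CPM in deep libraries. The classes thus differed in these levels as well as in depth, and why was not tested.

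The genes lie at these positions of GRCm38, all as protein-coding genes. Id1 is at chr2:152736251-152737410 (plus strand), Id2 at chr12:25093799-25097140 (minus strand) and Id3 at chr4:136143497-136145755 (plus strand). Bmp4 occupies chr14:46383520-46390669 (minus strand) and overlaps Gm15217 and Gm15222 on the opposite strand. Bmpr1a spans chr14:34410734-34503341 (minus strand) and overlaps Gm17110 on the opposite strand. The labels do not say whether counting used strand, so reads of these pairs may be shared. Smad1 is at chr8:79338395-79399518 (minus strand), Smad6 at chr9:63953076-64022059 (minus strand), Nog at chr11:89300638-89302332 (minus strand) and Grem1 at chr2:113746164-113758646 (minus strand). Smad5, at chr13:56703010-56742377 (plus strand), contains 3 small genes on its own strand.

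Upstream sequence is shown for Grem1, the gene of the set whose scKO difference passed the test with each deep library left out, and for Smad6, a feedback target of the pathway whose difference did not pass the test. Each line is the 250 bases before the RefSeq transcription start, 5′ to 3′ on the gene's own strand (GRCm38.p6, chr2:113758649-113758898 for Grem1 and chr9:64022060-64022309 for Smad6, both minus strand). Capitals mark GGCGCC, a GC-rich motif that BMP-activated Smads can bind, and CAGCTG, a form of E-box that myogenic factors with their E-protein partners can bind.
Grem1: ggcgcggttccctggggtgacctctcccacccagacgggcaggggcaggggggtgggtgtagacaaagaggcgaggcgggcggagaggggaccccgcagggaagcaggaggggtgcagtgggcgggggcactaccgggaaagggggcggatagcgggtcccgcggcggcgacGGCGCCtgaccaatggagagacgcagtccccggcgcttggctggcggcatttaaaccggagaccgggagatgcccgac
Smad6: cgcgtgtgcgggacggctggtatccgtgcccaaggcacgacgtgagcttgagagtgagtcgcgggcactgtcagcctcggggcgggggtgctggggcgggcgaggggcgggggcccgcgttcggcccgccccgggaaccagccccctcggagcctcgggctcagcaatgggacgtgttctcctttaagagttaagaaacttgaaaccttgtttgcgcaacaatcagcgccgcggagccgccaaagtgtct
Grem1 held 1 GGCGCC, 78 bases before the start, and Smad6 held none; neither held CAGCTG. Both strands were searched, and both motifs read the same on either strand. GGCGCC occurred in 9.59% and CAGCTG in 13.0% of the 32817 RefSeq windows of this length. The shorter Smad motif GTCT, or AGAC on the other strand, was found 4 times in Grem1 and once in Smad6, and at least once in 82.9% of windows. RefSeq entries were at hand for 8 of the 10 genes. Among those, GGCGCC was also present in the windows of Id2 and Bmpr1a and in 1 of the 3 windows of Smad5. CAGCTG was present only in the window of Id2. These windows overlap annotated exons, and those of Id2 and Bmpr1a lie within the gene spans given above. These matches are descriptions of letters, not of binding.

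The Id genes were the most abundant of the set. Levels between genes were compared per kilobase of exon, as CPM per kb, on the assumption that counts scale with exon length; the labels do not say whether reads came from transcript ends. In shallow controls Id1 led with 309 ± 69.4 CPM per kb (SD, n = 7), followed by Id2 with 90.4 ± 11.2 and Id3 with 62.7 ± 20.1. Nog (23.6 ± 16.2) and Bmpr1a (17.1 ± 4.20) came next. The rank of Nog rested on control 7, 8 and 9, which stood apart, with 45.7, 43.8 and 30.0 CPM per kb. In the other 4 shallow controls Nog held 7.76 to 14.9 and Bmpr1a 12.2 to 21.5 CPM per kb. Smad1 (6.81 ± 2.05), Smad5 (5.06 ± 1.67), Smad6 (4.38 ± 3.10) and Grem1 (4.01 ± 1.56) followed, and Bmp4 (0.294 ± 0.516) was lowest. The range of Id1 over libraries lay above that of Id2, and the range of Bmpr1a above those of Smad1, Smad5, Smad6 and Grem1. Id2 and Id3 overlapped, as did Id3 and Nog, Nog and Bmpr1a, and Smad1, Smad5, Smad6 and Grem1 among themselves, so their order is within the spread between libraries. In the 2 deep controls Id3 ranked above Id2, with 213 ± 26.4 against 130 ± 2.20 CPM per kb, and Id1 again led with 374 ± 90.6. Smad1 and Bmpr1a (14.1 ± 2.78 and 12.9 ± 2.60) were next, with overlapping ranges, and Bmp4 was again lowest at 1.54 ± 1.09.

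**Figure D1:**
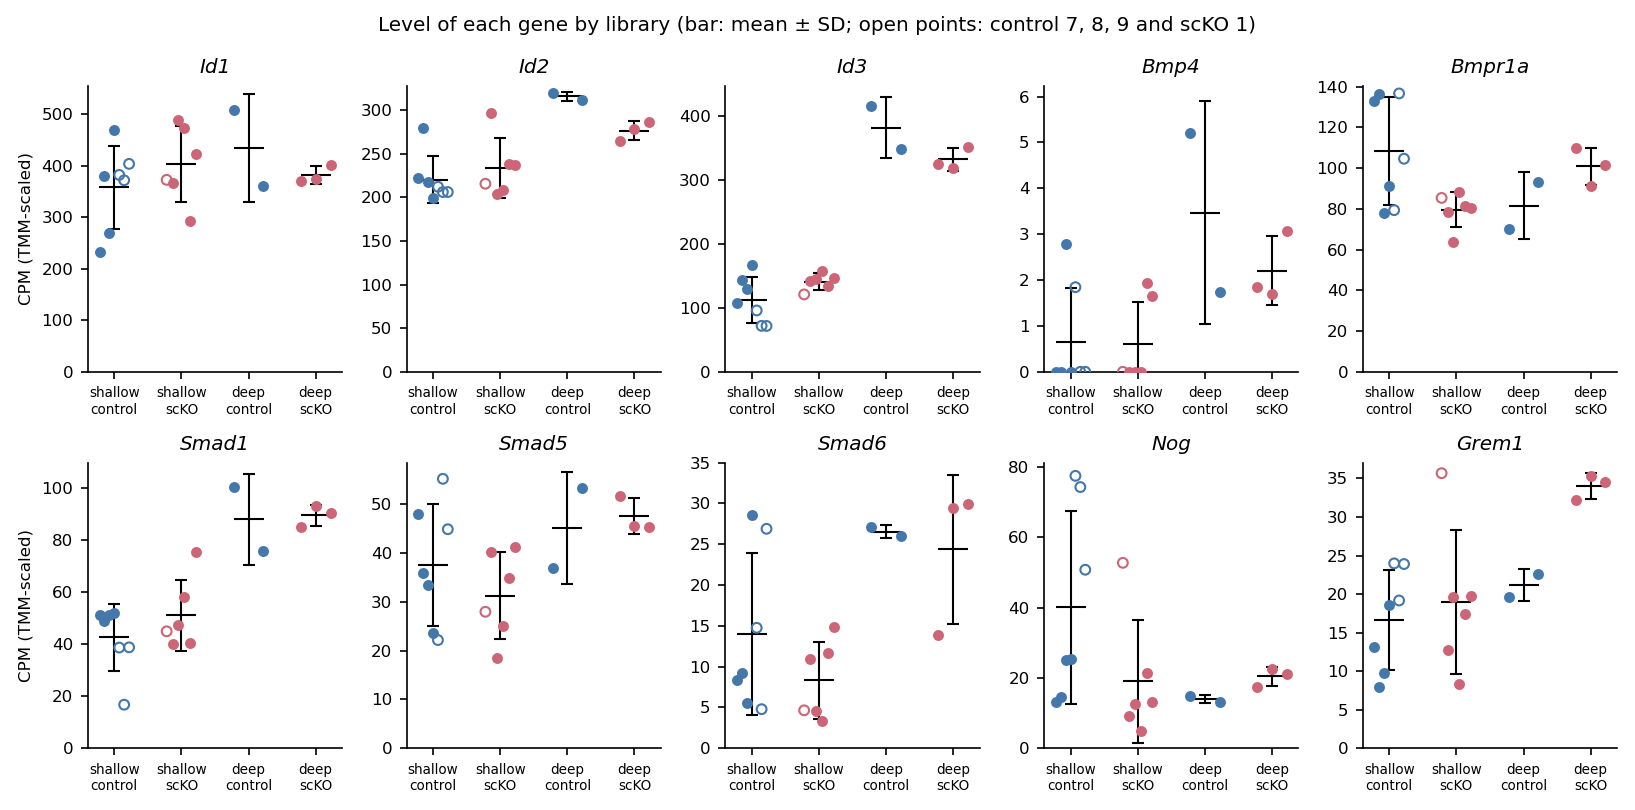
Level of each of the 10 genes in every library, as CPM on TMM-scaled totals (vertical axis, linear, from 0), by depth class and group (horizontal axis: shallow control n = 7, shallow scKO n = 6, deep control n = 2, deep scKO n = 3). Points are libraries, bars are the mean ± SD, and open points are control 7, 8 and 9 and scKO 1. Groups overlap for every gene in the shallow libraries, and Id3 lies higher in deep (319 to 415 CPM) than in shallow libraries (71.7 to 167 CPM).

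Id1 did not pass the test in either class. In shallow libraries the lowest, median and highest levels were 233, 380 and 468 CPM in controls and 293, 398 and 489 CPM in scKO. In deep libraries control 1 had 508 and control 2 had 360 CPM, and scKO 6, 7 and 9 had 370, 374 and 402 CPM. The 3 scKO libraries thus fell between the 2 controls. The log2 fold change of scKO against control was 0.16 (SE 0.18, adjusted p = 0.878 by edgeR's quasi-likelihood test with Benjamini-Hochberg adjustment) in shallow and -0.20 (SE 0.14, edgeR adjusted p = 0.385) in deep libraries. The deep value turned on which control was kept: it was -0.43 (edgeR adjusted p = 0.00582) without control 2 and 0.06 (edgeR adjusted p = 0.728) without control 1.

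Id2 did not pass the test either, and its groups overlapped in shallow but not in deep libraries. Its shallow levels ran from 199 over a median of 212 to 279 CPM in controls and from 204 over 226 to 297 CPM in scKO. The deep controls had 320 and 312 CPM and the deep scKO libraries 265, 279 and 286 CPM. All 3 deep scKO libraries lay below both controls, as they did for 20.9% of the 13136 genes tested there. The log2 fold change was 0.07 (edgeR adjusted p = 0.938, SE 0.14) in shallow and -0.21 (SE 0.10, edgeR adjusted p = 0.189) in deep libraries.

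Among the 8 genes tested with the depth class as a term, Id3 differed most between the classes. Shallow levels were 71.7, 108 and 167 CPM (lowest, median, highest) in controls and 121, 144 and 158 CPM in scKO. Deep levels were 415 and 348 CPM in the controls and 325, 319 and 352 CPM in scKO. With the group as a term, deep exceeded shallow libraries by 1.47 on the log2 scale, at percentile 96.5 of the 7662 genes tested, whose median was -0.01. All 6 shallow scKO libraries were above the shallow control mean (112 ± 36.0 CPM, SD, n = 7) and all 3 deep scKO libraries were below the deep control mean (382 ± 47.3 CPM, SD, n = 2). Neither difference passed the test: the log2 fold change was 0.31 (edgeR adjusted p = 0.822, SE 0.18) in shallow and -0.22 (SE 0.11, edgeR adjusted p = 0.234) in deep libraries. The 3 shallow controls that stood apart held 71.7 to 95.9 CPM and the other 4 held 108 to 167 CPM. Without the 4 libraries that stood apart the shallow difference was 0.09 (edgeR adjusted p = 0.909). The deep difference was -0.34 (edgeR adjusted p = 0.0233) without control 2 and -0.0936 (edgeR adjusted p = 0.582) without control 1.

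Counts of the Id genes in deep libraries took up much of the range that the table allows. The highest count in the table equalled 4 to the power 6, as many as there are distinct 6-base sequences. UMIs (unique molecular identifiers) are short sequence tags that mark single molecules. The UMI length is not given in the labels. In deep libraries Id1 reached 63.8 to 70.3% of that number, Id3 54.6 to 68.1% and Id2 42.1 to 61.0%, against 3.30 to 10.3% for Id1 in shallow libraries. If 6-base UMIs were drawn evenly, Id1 counts of 2615 to 2881 would stand for 4167 to 4978 molecules. With all counts corrected in this way, the deep log2 fold changes were -0.24 (SE 0.13, edgeR adjusted p = 0.249) for Id1, -0.27 (SE 0.10, edgeR adjusted p = 0.0779) for Id2 and -0.28 (SE 0.09, edgeR adjusted p = 0.0618) for Id3. None passed the threshold of 0.05, and the deposited counts gave smaller differences for each.

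**Figure D2:**
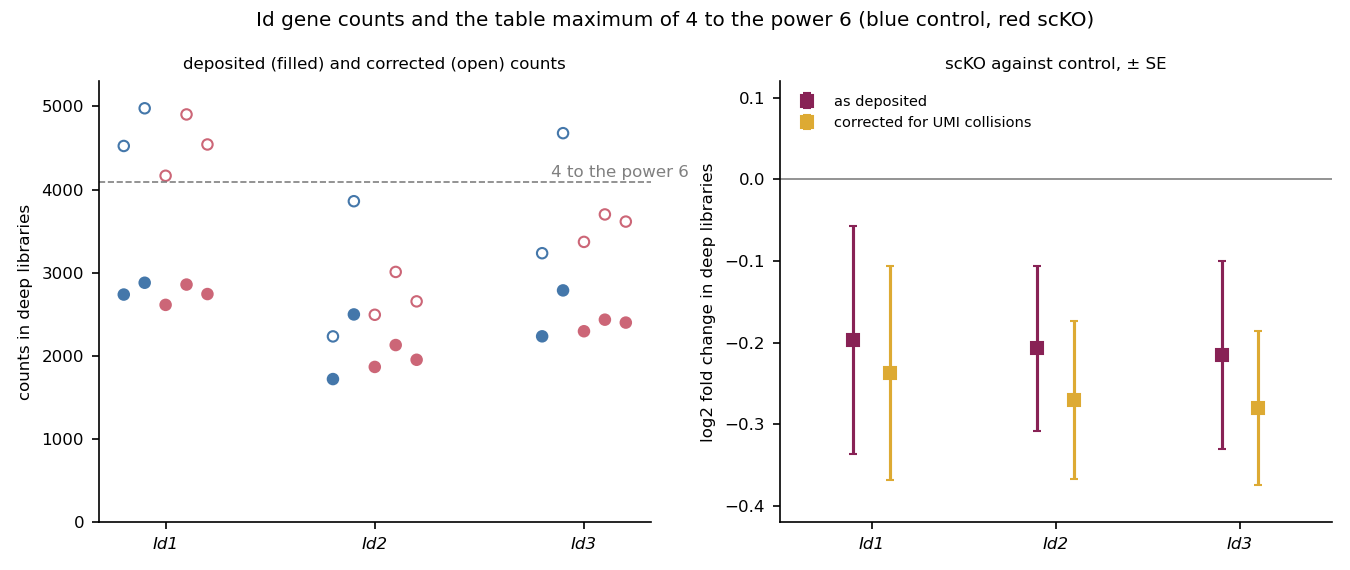
Left, counts of Id1, Id2 and Id3 in the 5 deep libraries (vertical axis, counts from 0; blue control, red scKO; filled as deposited, open after correction for UMI collisions), with a dashed line at 4 to the power 6. Right, log2 fold change of scKO against control in deep libraries ± SE, from deposited and corrected counts. The corrected values are lower for all 3 genes, at -0.24, -0.27 and -0.28.

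Bmp4 was barely detected. The shallow controls held 3 counts in all and the shallow scKO libraries 2; 5 of 7 controls and 4 of 6 scKO libraries had none, where a count of 3 corresponds to 3.46 to 8.96 CPM. In deep libraries there were 28 and 14 counts in control 1 and 2 (5.20 and 1.75 CPM) and 13, 13 and 21 in scKO 6, 7 and 9 (1.84, 1.70 and 3.07 CPM). Control 1 was the highest and the remaining 4 libraries overlapped. The gene passed the count filter only in the deep comparison, where scKO was -0.59 against control on the log2 scale (SE 0.46, edgeR adjusted p = 0.447), and no difference was detectable in shallow libraries at this depth.

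Bmpr1a, a type I BMP receptor, had fold changes of opposite sign in the 2 depth classes and did not pass the test in either. In shallow libraries it ranged from 77.7 over 105 to 137 CPM in controls and from 63.5 over 81.0 to 88.2 CPM in scKO. The groups overlapped, and all 6 scKO libraries were below the control mean of 108 ± 26.7 CPM (SD, n = 7). In deep libraries control 1 and 2 had 70.0 and 93.3 CPM and scKO 6, 7 and 9 had 110, 91.3 and 101 CPM. All 3 scKO libraries were above the control mean of 81.6 ± 16.5 CPM (SD, n = 2), and scKO 7 was below control 2. The log2 fold change was -0.46 (SE 0.18, unadjusted p = 0.0183, edgeR adjusted p = 0.729) in shallow and 0.28 (SE 0.13, unadjusted p = 0.0459, edgeR adjusted p = 0.161) in deep libraries. The deep value was 0.51 (edgeR adjusted p = 0.0202) without control 2 and 0.0865 (edgeR adjusted p = 0.720) without control 1.

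Smad1 and Smad5, which carry the signal to the nucleus, showed no difference past the threshold. Smad1 held 16.8, 49.0 and 52.2 CPM (lowest, median, highest) in shallow controls and 40.1, 46.2 and 75.7 CPM in shallow scKO. In deep libraries Smad1 had 100 and 75.8 CPM in controls and 85.1, 93.3 and 90.3 CPM in scKO, with the scKO libraries between the controls. Its log2 fold change was 0.23 (edgeR adjusted p = 0.871, SE 0.22) in shallow and 0.02 (SE 0.12, edgeR adjusted p = 0.947) in deep libraries. Smad5 ranged from 22.1 to 55.1 CPM in shallow controls and from 18.5 to 41.1 CPM in shallow scKO. Deep controls had 36.9 and 53.2 CPM and deep scKO libraries 51.7, 45.5 and 45.2 CPM, again between the controls. For Smad5 the log2 fold change was -0.28 (edgeR adjusted p = 0.853, SE 0.25) in shallow and 0.04 (SE 0.14, edgeR adjusted p = 0.874) in deep libraries.

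Smad6, which blocks the BMP Smads and is itself a BMP target, had few counts. It was counted 2 to 17 times in shallow controls and 2 to 9 times in shallow scKO libraries, and it did not pass the filter there. Deep controls held 146 and 208 counts (27.1 and 26.0 CPM) and deep scKO libraries 98, 225 and 204 (13.9, 29.4 and 29.9 CPM). scKO 6 was lowest and the other scKO libraries were above both controls. The deep log2 fold change was -0.13 (edgeR adjusted p = 0.832, SE 0.32).

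Grem1, the antagonist gremlin, was higher in scKO in the deep libraries. Control 1 and 2 held 106 and 181 counts (19.7 and 22.6 CPM), and scKO 6, 7 and 9 held 227, 270 and 236 counts (32.1, 35.3 and 34.5 CPM). The groups did not overlap, with means of 21.1 ± 2.07 (SD, n = 2) and 34.0 ± 1.66 CPM (SD, n = 3). The log2 fold change was 0.66 (edgeR adjusted p = 0.00585, SE 0.14). It stayed past the threshold with each deep library left out in turn (edgeR adjusted p from 0.00796 to 0.0392). Shallow libraries held 5 to 23 counts, with 7.95, 18.5 and 24.0 CPM (lowest, median, highest) in controls and 8.32, 18.5 and 35.7 CPM in scKO. These overlapped, and the shallow log2 fold change of 0.27 (SE 0.33) did not pass the test (edgeR adjusted p = 0.890). scKO 1, which stood apart, was the highest. The shallow value was 0.01 without it and 0.38 (edgeR adjusted p = 0.812) without all 4 libraries that stood apart. In bulk RNA, a change in the share of cells that make a transcript and a change in the amount per cell cannot be told apart.

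Nog, the antagonist noggin, was also higher in scKO in deep libraries, with a p near the threshold. The controls held 80 and 106 counts (14.8 and 13.2 CPM) and the scKO libraries 124, 173 and 145 (17.6, 22.6 and 21.2 CPM), without overlap. The log2 fold change was 0.54 (edgeR adjusted p = 0.0473, SE 0.17). The call was lost without control 1 (edgeR adjusted p = 0.0781), control 2 (0.191), scKO 7 (0.176) or scKO 9 (0.109), and with DESeq2 (0.135). In shallow libraries the fitted value was of the opposite sign, -0.99 (SE 0.54, edgeR adjusted p = 0.822). Without the 4 libraries that stood apart Nog did not pass the filter in shallow libraries, and its value over all libraries turned from -0.25 to 0.18 (edgeR adjusted p = 0.872 and 0.668). There Nog separated the libraries that stood apart from the rest: control 7, 8 and 9 held 77.5, 74.3 and 50.8 CPM and scKO 1 held 52.7 CPM, while the other controls held 13.2 to 25.3 CPM and the other scKO libraries 4.99 to 21.3 CPM. Without scKO 1 the shallow value was -1.61 (edgeR adjusted p = 0.221), and without control 7 it was -0.69 (edgeR adjusted p = 0.948). Grem1 was also high in these 4 libraries (19.2 to 35.7 CPM against 7.95 to 19.7 CPM in the other 9), and Smad1 was low (16.8 to 45.0 against 40.1 to 75.7 CPM), both with some overlap. Which step set these libraries apart was not tested.

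**Figure D3:**
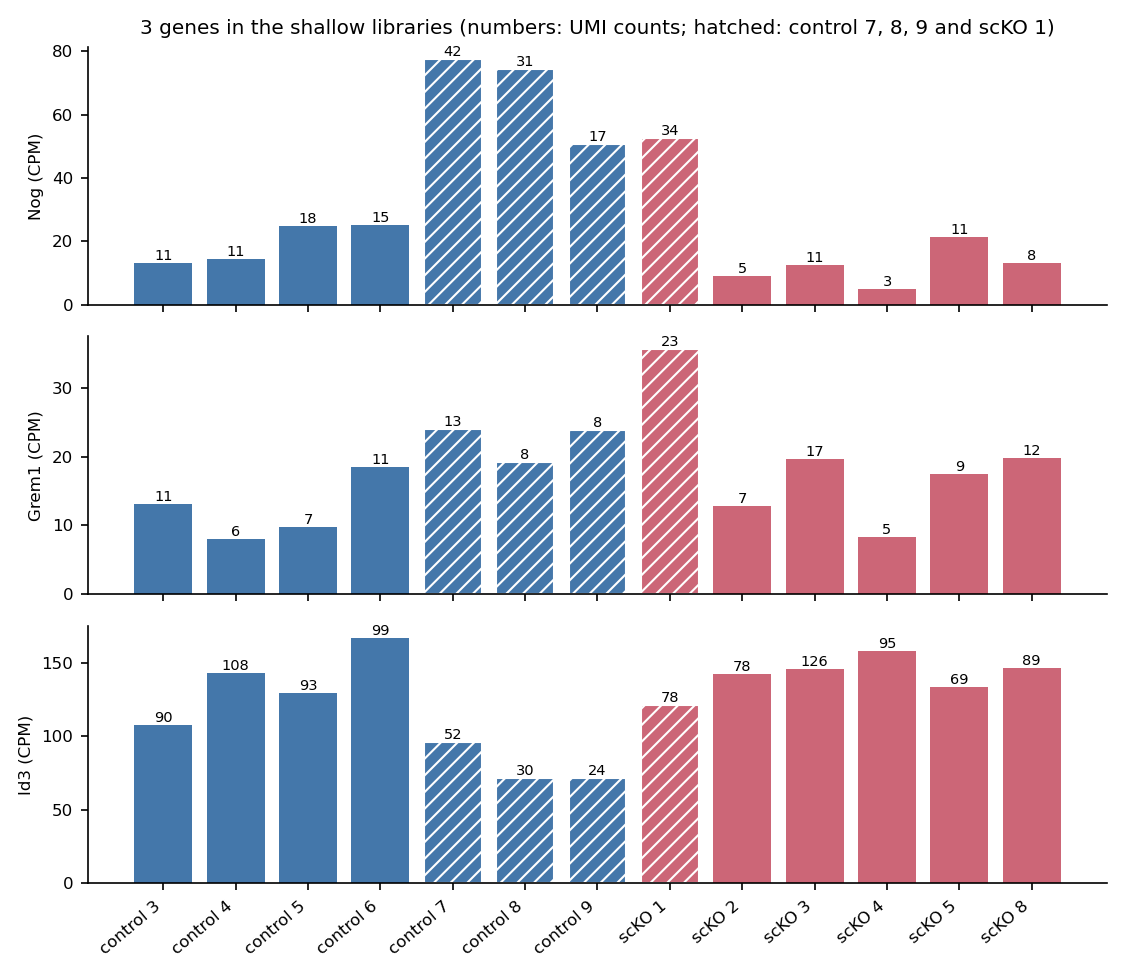
Nog, Grem1 and Id3 in each of the 13 shallow libraries (bars from 0, CPM on TMM-scaled totals; blue control, red scKO; the number above each bar is the UMI count). Hatched bars are control 7, 8 and 9 and scKO 1, which hold 50.8 to 77.5 CPM of Nog against 4.99 to 25.3 CPM in the other 9.

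Counted together, few of the 10 genes passed the test. Of the 8 tested in shallow libraries 0 passed, where 0.0434% of all genes did, and DESeq2 also called 0. An unadjusted edgeR p under 0.05 was found for 1 (Bmpr1a), beside 425 of all 6906 genes. With all 18 libraries and the depth class as a term, 0 of 8 passed beside 0.679% of all genes. Grem1 came nearest there (0.52, SE 0.20, edgeR adjusted p = 0.272) and was the only one of the 8 with an unadjusted p under 0.05. DESeq2 called it (adjusted p = 0.034). Of all 7662 genes, 910 had an unadjusted edgeR p under 0.05, and DESeq2 called 390. Grem1 also passed edgeR's test without the 4 libraries that stood apart (0.61, adjusted p = 0.0201), where 617 of all genes passed instead of 52. With all 18 libraries the other 7 lay between -0.25 and 0.14. That comparison is built from the same libraries as the class comparisons. In deep libraries 2 of 10 passed, Grem1 and Nog, both higher, beside 14.3% of all genes in either direction and 7.31% in the higher direction. Without scKO 7 or scKO 9, or with DESeq2, which gave no adjusted p for Bmp4, that count was 1 (Grem1). The count of all genes changed as well, from 1884 to 996 without scKO 7 and to 1296 with DESeq2. Fits without control 1 or control 2 leave 1 control, and their effect sizes for Id1, Id3 and Bmpr1a differed as given above.

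The groups did not overlap for 3 of the 10 genes in deep libraries, beside 45.2% of all genes tested there, so that share was below the background. Grem1 and Nog lay above all controls, as did 24.3% of all genes, and Id2 below, as did 20.9%. In shallow libraries 0 of the 10 were without overlap, beside 0.319% of all genes. The median log2 fold change of the genes tested was 0.12 in shallow libraries, 0.03 with all libraries and -0.06 in deep libraries, against -0.02, -0.01 and -0.0017 over all genes. The difference between the deep and the shallow effect was tested as an interaction. It passed for 0 of the 8 genes and for 0% of all genes, with edgeR adjusted p from 0.598 for Bmpr1a (0.75, SE 0.28, unadjusted p = 0.0140) to 0.969; 473 of 7662 genes had an unadjusted p under 0.05. For Id3 the interaction was -0.51 (SE 0.30, edgeR adjusted p = 0.912) and for Nog 1.48 (SE 0.72, edgeR adjusted p = 0.826). The effects in the 2 classes were thus not shown to differ for any of these genes.

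**Figure D4:**
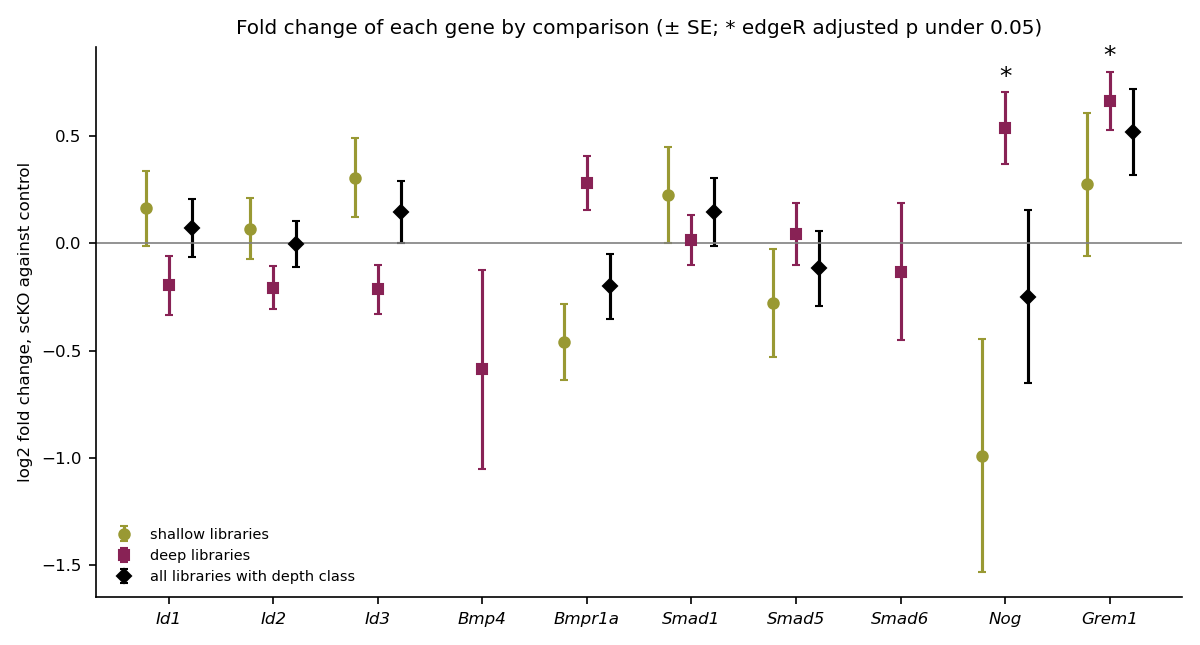
Log2 fold change of scKO against control ± SE (vertical axis) for each of the 10 genes (horizontal axis), in shallow libraries (circles), deep libraries (squares) and all libraries with the depth class as a term (diamonds). Bmp4 and Smad6 were tested in deep libraries only; the 2 stars mark an edgeR adjusted p under 0.05, for Nog (0.54) and Grem1 (0.66) in deep libraries.

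The 6 role lists of BMP signalling, 80 genes in all with overlaps removed and the 10 above included, gave the surroundings of these genes. In shallow libraries 0 of 38 tested genes passed edgeR's test (2 with an unadjusted p under 0.05, 0 by DESeq2). Of all 6906 genes tested there, 425 had an unadjusted edgeR p under 0.05, and DESeq2 called 6. With all libraries and the depth class, 0 of 40 passed (5 with an unadjusted p under 0.05, and 2 by DESeq2, Ets1 and Grem1). Of all 7662 genes tested there, 910 had an unadjusted edgeR p under 0.05, and DESeq2 called 390. In deep libraries 12 of 64 passed, or 18.8% beside 14.3% of all genes, 6 higher and 6 lower in scKO. DESeq2 called 8 of the list genes there, beside 1296 of the 13136 genes entered. It gave no adjusted p for some of them, among them Bmp4, Sost and Sostdc1. The median over the 64 genes was -0.0057, against -0.0017 over all genes.

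Among secreted antagonists and modulators, 6 of 14 tested genes passed in deep libraries, or 42.9% beside 14.3% of all genes. Higher in scKO were Grem1, Nog and Fst, which encodes the activin and BMP binder follistatin. Fst had 68.7 and 67.8 CPM in controls and 96.3, 116 and 121 CPM in scKO (0.69, SE 0.11, edgeR adjusted p = 0.00168). In shallow libraries Fst was -0.13 (SE 0.22, edgeR adjusted p = 0.919), and its interaction was 0.82 (SE 0.34, edgeR adjusted p = 0.717). Sostdc1, a secreted BMP and Wnt antagonist, was lower and had 10 and 29 counts in controls and 4, 4 and 3 in scKO (-2.45, SE 0.48, edgeR adjusted p = 0.00488); without control 2 its adjusted p was 0.138. Sost, which encodes sclerostin, was also lower and had 18 and 34 counts in controls and 17, 13 and 7 in scKO (-1.17, SE 0.37, edgeR adjusted p = 0.0490), and it lost the call without control 1, control 2, scKO 7 or scKO 9 (adjusted p from 0.0781 to 0.255). DESeq2 called 3 genes of this list, among them Fst and Grem1, beside 1296 of the 13136 genes entered. It gave no adjusted p for Sost or Sostdc1, so it did not assess them. In shallow libraries 0 of 8 passed edgeR's test, 1 had an unadjusted p under 0.05, and DESeq2 called 0. Fstl1, a secreted follistatin relative, was -0.35 there (SE 0.16, edgeR adjusted p = 0.800).

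Of the ligands, none of 13 passed the count filter in shallow libraries or over all libraries, and 4 were never counted. In deep libraries 1 of 6 tested ligands passed, a share near the 14.3% of all genes. Bmp2, which signals through Bmpr1a, was higher in scKO, with 28 and 23 counts in control 1 and 2 (5.20 and 2.87 CPM) and 87, 75 and 61 in scKO 6, 7 and 9 (12.3, 9.81 and 8.93 CPM). The groups did not overlap, as for 45.2% of all genes tested there, and the log2 fold change was 1.40 (edgeR adjusted p = 0.00474, SE 0.27). In shallow libraries Bmp2 had 2 to 12 counts in controls and 2 to 8 in scKO.

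Among receptors and co-receptors 2 of 10 tested genes passed in deep libraries, a share near the 14.3% of all genes. Hfe2, which encodes the BMP co-receptor hemojuvelin of muscle and liver, was higher, with 116 and 114 CPM in controls and 226, 203 and 195 CPM in scKO (0.83, SE 0.10, edgeR adjusted p = 0.000244). Bmpr1b, a second BMP type I receptor, was lower, with 8.17 and 8.37 CPM in controls and 4.39, 4.97 and 4.54 CPM in scKO (-0.85, SE 0.22, edgeR adjusted p = 0.0208). Bmpr1b lost the call without control 1, control 2, scKO 7 or scKO 9 (adjusted p from 0.0527 to 0.0849) and with DESeq2 (0.108). Neither was called in shallow libraries, where Hfe2 was -0.18 (SE 0.19, edgeR adjusted p = 0.881) and Bmpr1b, with 1 to 7 counts, did not pass the filter. For Hfe2 the interaction was 1.02 (SE 0.33, edgeR adjusted p = 0.511). Rgmb, another co-receptor, had the smallest p of the list over all libraries (0.57, SE 0.20, edgeR adjusted p = 0.217), and the activin and BMP type II receptor Acvr2a was 0.21 (SE 0.11, edgeR adjusted p = 0.479).

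No Smad or Smad regulator passed in any of the 3 comparisons, of 14 tested in deep libraries and 10 in each of the other comparisons. Of all genes, 14.3% passed in deep, 0.0434% in shallow and 0.679% over all libraries. An unadjusted edgeR p under 0.05 was found for 1 of the 14, beside 3863 of all 13136 genes. It was found for 0 of the 10 in either other comparison, beside 425 of 6906 genes (shallow) and 910 of 7662 (all libraries). DESeq2 called 0, beside 1296 genes in deep, 6 in shallow and 390 over all libraries. Smad7, the feedback inhibitor shared with other pathways of the family, was -0.39 over all libraries (SE 0.28, edgeR adjusted p = 0.641), and the Smad co-repressor Skil was -0.12 (SE 0.14, edgeR adjusted p = 0.805). Of the target genes, 1 of 14 passed in deep libraries, which is 7.14% beside 14.3% of all genes. This was Runx2, a transcription factor of bone formation, lower in scKO with 130 and 127 CPM in controls and 87.9, 107 and 105 CPM in scKO (-0.38, SE 0.10, edgeR adjusted p = 0.0236). It lost the call without control 1, control 2 or scKO 6 (adjusted p from 0.0502 to 0.0694). The homeobox target Dlx2 was -0.51 (SE 0.20, edgeR adjusted p = 0.139) and was called by DESeq2 (adjusted p = 0.0471). The 3 Id genes, the best known targets, are among the 13 that did not pass.

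Of the partners of Id proteins, 2 of 8 tested genes passed in deep libraries, beside 14.3% of all genes. Myf6, a myogenic factor of late differentiation, was higher, with 21 and 55 counts in controls and 134, 160 and 97 in scKO (1.68, SE 0.25, edgeR adjusted p = 0.00102). Myf5, a myogenic factor of proliferating cells, was lower, with 132 and 146 CPM in controls and 106, 108 and 121 CPM in scKO (-0.33, SE 0.10, edgeR adjusted p = 0.0350). Myf5 lost the call without control 2, scKO 6 or scKO 7 (adjusted p from 0.0852 to 0.164) and with DESeq2 (0.0664). In shallow libraries Myf5 was -0.17 (SE 0.22, edgeR adjusted p = 0.903), and Myf6, with 0 to 5 counts, did not pass the filter. Over all libraries the E protein Tcf3 was -0.23 (SE 0.21, edgeR adjusted p = 0.741) and Ets1, an Ets-family factor, was -0.51 (SE 0.19, edgeR adjusted p = 0.239; DESeq2 adjusted p = 0.0385).

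**Figure D5:**
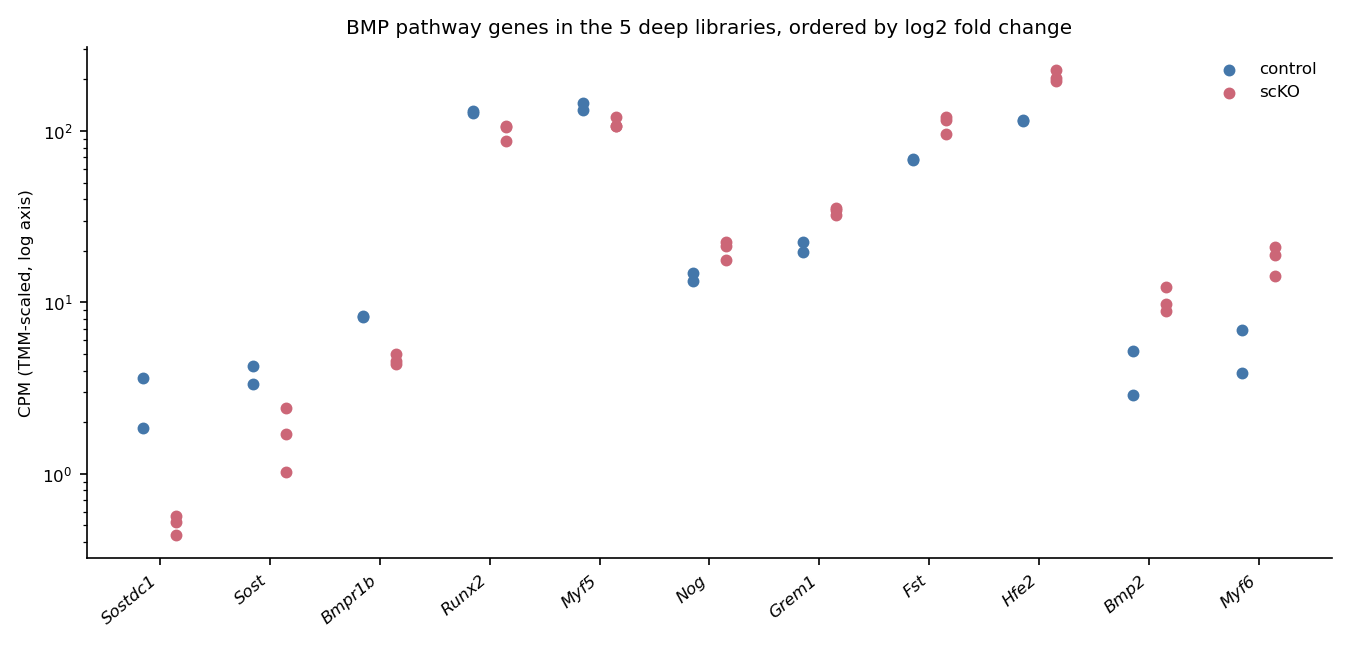
Levels in the 5 deep libraries of 11 BMP pathway genes past an edgeR adjusted p of 0.05 there, as CPM on TMM-scaled totals (vertical axis, logarithmic), ordered by log2 fold change from Sostdc1 (-2.45) to Myf6 (1.68). Each point is a library, blue control (n = 2) and red scKO (n = 3). The groups do not overlap for any of these genes, as for 45.2% of all genes tested there. The genes were picked by the test on these same libraries, so the lack of overlap adds no support.

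Markers of other cell types also differed between groups in the deep libraries. Of 8 tested markers of differentiated muscle 3 were higher in scKO (Mymx, Myh8 and Ckm), of 4 of smooth muscle and pericytes 2 (Abcc9 and Myh11), and of 4 of Schwann cells 1 (Sox10), where 7.31% of all genes were higher. The summed level of the 5 Schwann markers was 19.7 to 28.6 CPM in deep controls and 35.5 to 52.8 CPM in deep scKO, and that of the 5 smooth muscle and pericyte markers was 221 to 269 and 271 to 307 CPM. Of 5 tested fibro-adipogenic markers 0 passed edgeR's test, and the sum over that list was 388 to 420 CPM in controls and 374 to 413 CPM in scKO. Leukocyte markers summed to 3.15 to 6.87 and 4.97 to 14.3 CPM, with Ptprc and Adgre1 at 0 in deep controls. In shallow libraries the Schwann markers summed to 38.4 to 156 CPM in controls and 16.4 to 87.2 CPM in scKO. The part of these markers in the differences of Grem1, Nog and the other pathway genes was not tested.

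The genes whose levels followed each member most closely were found over the 18 libraries, from log2 CPM centred within depth class and group, among genes with a mean of at least 20 CPM in both classes. Nog was most like Cnppd1 (Pearson r = 0.96), Uaca (0.94) and Gtf2ird1 (0.93). Id3 was most like the ribosomal protein gene Rps21 (0.94), Hars (0.92) and Cbr1 (0.92), and Grem1 was most like Dcaf5 (0.90), Rtcb (0.90) and Utp6 (0.89). For Id1 these were Myom3 (0.89), Ctnna1 (0.87) and Hs6st1 (0.86), and for Id2 Selenot (0.81), Fpgt (0.79) and Six4 (0.78). Smad1 was most like Mgat2 (0.89), Dnajc30 (0.89) and Ccdc32 (0.85), Smad5 like Ppp1r12a (0.87), Ccnt1 (0.84) and Ap2b1 (0.81), and Bmpr1a like Chd1 (0.82), Nucks1 (0.82) and Bod1l (0.81). Nog fell short of that mean in deep and Grem1 in shallow libraries, and Bmp4 and Smad6 did not pass the filter. These genes could therefore not be found as most like another. None of the other genes of the set was among the 3 most like another. Between pairs of genes of the set, r ran from -0.63 (Id3 and Nog) to 0.86 (Nog and Grem1). All these values describe 18 points that include the 4 libraries that stood apart. The 3 genes most like each were picked as the highest among 5845 or 5846 genes.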

How the data were processed

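Expression was measured by RNA sequencing in 18 libraries, 9 control and 9 scKO. The deposited table holds raw counts of UMIs per gene, per its name, with 1 column per library, and no other unit was used. The submitters' processing notes list HISAT2, HTSeq and the rat build Rnor_6.0, although the identifiers are mouse Ensembl genes; identifiers were used as deposited. Versions, annotation, kit, strand and UMI length are not given in the sources used here. Of 50689 features 313 had no symbol and held 0.041% of counts. Totals ran from 420197 to 5986128 counts, and a floor of 3 counts was 0.375 to 8.96 CPM. Intervals and floors cover counting error only, and standard errors cover the spread between libraries.

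In edgeR 4.0.16 (R 4.3.3), low counts were removed by filterByExpr with the group given, totals were scaled by TMM, and groups were compared with the robust quasi-likelihood test, with Benjamini-Hochberg adjustment over all genes tested and a threshold of 0.05. Fits used the 13 shallow libraries, the 5 deep ones, all 18 with the depth class as a term, and the interaction of group and class. Levels are CPM on TMM-scaled totals, and log2 CPM used a prior count of 2. Alternatives were DESeq2 1.42.0, median-of-ratios size factors, no filter, a stricter filter (at least 10 counts in 9, 6 or 2 libraries), counts corrected for UMI collisions, a replicate block, the group alone, and leaving out single libraries or the 4 that stood apart. Positions and exon lengths came from GENCODE release M21 (GRCm38), upstream sequences from RefSeq (GRCm38.p6). Hjv is listed as Hfe2.

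The genes of the set, the role lists, the markers and the models were chosen with earlier results of these data known. Named genes were the 10 of the set; of each role list, those past the threshold in any of the 3 group comparisons, and otherwise up to 3 with the smallest p over all libraries; and the 3 genes most like each. A gene that this rule selects is not reported here. Groups share replicate numbers, but the labels do not say whether these pair the libraries. No set test was run.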

Additional observations from a re-analysis of the deposited data

Results flagged for a closer look

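Of 20 groups of 6 or 7 shallow libraries checked, 4 held a library far from the others. The check is set to flag about 1 in 20 groups of independent, normally distributed values. These groups are genes measured in the same libraries, so their count cannot be set against that rate. Id2 was 279 CPM in control 4, with the next control at 222 CPM, and 297 CPM in scKO 2, with the next scKO library at 238 CPM. Smad1 was 16.8 CPM (7 counts) in control 8, with the next control at 38.7 CPM. Nog was 52.7 CPM (34 counts) in scKO 1, with the next scKO library at 21.3 CPM. Control 8 and scKO 1 are among the 4 libraries that stood apart.

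For Id3 every shallow scKO library lay above the shallow control mean and every deep one below the deep control mean, with an interaction of -0.51 (edgeR adjusted p = 0.912). For Bmpr1a every scKO library moved the other way in each class, with an interaction of 0.75 (edgeR adjusted p = 0.598). Neither difference between the classes passed the test.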

How the results depend on the processing

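Of 466 values of the 10 genes under the alternatives, 434 kept their direction and side of the threshold, 22 turned sign, 5 passed the threshold and 5 fell short of it. Shallow libraries held 0 to 2 counts of Bmp4, 2 to 17 of Smad6 and 5 to 23 of Grem1, and deep comparisons rest on 2 controls. The cause of the changes below was not tested.

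The count of all genes past the threshold over 18 libraries, 52, was 390 with DESeq2, 359 without a filter, 22 with the stricter filter, 1 with the group alone, 617 without the 4 libraries that stood apart, and 11 (without control 1) to 216 (without scKO 1) with single libraries left out. In deep libraries 1884 became 996 (without scKO 7) to 1810 with single libraries left out. In shallow libraries 3 became 6 with DESeq2, 13 without a filter, 0 without the libraries that stood apart, where Nog did not pass the filter, and 1 to 5 with single libraries left out. Of the 10 genes, 0 past the threshold over all libraries became 1 with DESeq2 and 1 without the libraries that stood apart, and 2 in deep libraries became 1 with DESeq2 and 1 to 4 with single libraries left out.

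With the group alone, Id2 (0.0314) and Hfe2 (-0.0892) turned sign over all libraries. Without the libraries that stood apart, Id3 (-0.0398), Nog (0.18) and Skil (0.0134) did so over all libraries, and Fst (0.16) and Skil (0.0569) in shallow ones. Without a filter, Runx2 was 0.0124 in shallow libraries. With single libraries left out, values spanned 0 in deep libraries for Id1 (-0.43 to 0.0625), Bmp4 (-1.26 to 0.30), Smad1 (-0.18 to 0.22), Smad5 (-0.19 to 0.35), Smad6 (-0.30 to 0.15), Smad7 (-0.25 to 0.0715), Fstl1 (-0.30 to 0.0445) and Skil (-0.12 to 0.0274). They did so in shallow libraries for Id2 (-0.0079 to 0.15), Runx2 (-0.0832 to 0.0732) and Dlx2 (-0.40 to 0.0033), and over all libraries for Id2 (-0.0624 to 0.0362).

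With a replicate block, 14 genes passed over all libraries, Id2 was 0.0041 there and -0.0626 in shallow libraries, and Dlx2 was 0.15 in shallow libraries. Same-numbered libraries correlated at -0.07 to 0.25, over 0.1 in 5 of 9 pairs, and 2 of 9 controls correlated best with their own number, so the pairing rests on a number alone. Deep libraries share no number, so no paired fit was made there.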
